A study of Mus musculus with 12 samples.

Results

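Claudins are the proteins that span the membrane at tight junctions, and this account follows 10 genes of that structure in 4 mouse lung adenocarcinoma cell lines: the claudins Cldn1, Cldn2, Cldn3, Cldn4, Cldn6, Cldn7 and Cldn9, the junction protein occludin (Ocln), and the scaffolds Tjp1 and Tjp3, which encode ZO-1 and ZO-3. The genes were chosen with earlier results of these data known. Every probe set annotated to 1 of these symbols alone was taken, without regard to its values. That gave 19 probe sets of the 45037 measured, and 10 genes of the 18193 with a probe set of their own. Cldn1 and Cldn3 had 4 probe sets each, Cldn2, Cldn9 and Ocln had 2 each, and the other members had 1 each.

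RNA of 12 cultures was measured on Affymetrix expression arrays, with 3 arrays for each of the lines KC1, KC2, KC3 and KC4. The labels class KC1, KC2 and KC3 as highly metastatic and KC4 as poorly metastatic, and they call the 3 arrays of a line biological replicates. All 4 lines have the same genotype, which includes Cdkn1a-/-, on a background written as 127s. Cdkn1a encodes p21, an inhibitor of the cell cycle. At necropsy the lines were made from lung primary tumours, of which the labels count 6 from 4 mice, and were grown in RPMI medium with serum. The labels do not say which line came from which mouse. KC4 is the only poorly metastatic line, so metastatic class and the identity of KC4 cannot be told apart in any value below. The p-values measure the spread between arrays of a line, not between tumours of a class. Alternative fits with the line ignored or as a random block also take in the spread between KC1, KC2 and KC3.

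Tight junctions seal the space between neighbouring epithelial cells at its apical end. Claudins form the strands, and the set of claudins a cell makes decides how tight the seal is and which ions pass: Cldn3 and Cldn4 are counted among the sealing claudins, Cldn2 forms a channel for cations and water, and Cldn6 and Cldn9 are best known from embryonic epithelia and from the inner ear. Occludin lies in the same strands, and the ZO proteins tie strands to the actin cytoskeleton. In adult lung, airway and alveolar epithelium make several claudins, among them Cldn3, Cldn4, Cldn7 and the lung form of Cldn18.

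Signals are the deposited linear brightness values, with values under 16 set to 16, which is log2 4.00. The mean of the signals after 2% was trimmed at each end was 500.002 to 500.003 on every array, the median signal was 94.5 to 128, and 15.3% to 20.0% of probe sets lay at the floor. A probe set was called when the adjusted p of limma's moderated test was under 0.05 and the log2 difference was at least 1 in size, and a line was set apart when it was called in the same direction against each of the other 3 lines. The epithelial identity on the label held in the markers of all 4 lines. The summed signal of Epcam, Cdh1, Krt7, Krt8, Krt18 and Krt19 ran over 89122 to 94038 in KC1 and 80039 to 99560 in KC2. It ran over 84349 to 87871 in KC3 and 70072 to 83289 in KC4, so the KC2 and KC4 ranges overlapped. The genes in the sum did not move together. Cdh1 was highest in KC4, at log2 13.91, with KC1 at 13.65, KC2 at 13.43 and KC3 at 13.48. Epcam was lowest in KC4, at log2 12.63, with KC1 at 13.61, KC2 at 13.74 and KC3 at 13.24. Krt7, Krt8 and Krt18 were also lowest in KC4, and Krt19 was lowest in KC2. The summed endothelial (5 of 5 listed genes measured), fibroblast (6 of 6) and leukocyte (4 of 5) markers lay between 355 and 720 on every array, and the 3 of 4 alveolar markers measured lay between 243 and 604. The 4 mesothelial markers summed to 7915 to 12356, nearly all of it from Msln, which many adenocarcinomas also make. The 5-prime 18S ribosomal control gave 605 ± 72.0 in KC1, 451 ± 86.8 in KC2 and 414 ± 39.0 in KC3, and it was brighter in KC4, at 3305 ± 935 (SD, n = 3 each), while the actin and Gapdh controls were of like brightness in all 4 lines. Its part in the differences from KC4 was not tested. The 2 probe sets of Cdkn1a gave 2.45 to 14.6 and 3875 to 8209 on the 12 arrays. Where they lie against the deleted part is not stated, so they check nothing about the genotype.

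The windows around the start sites of 4 members are shown because these genes carry the line differences described next. Each runs 250 bases before to 50 bases after the start of a RefSeq transcript (assembly GRCm38.p6), written in the direction of the gene, and windows were on hand for 9 of the 10 members. Capitals mark the E-box CACCTG or CAGGTG, the sequence that the Snail and ZEB factors bind, and the GC box GGGCGG or CCGCCC, the core sequence bound by Sp1.
Cldn3 (chr5:134985964-134986263, plus strand): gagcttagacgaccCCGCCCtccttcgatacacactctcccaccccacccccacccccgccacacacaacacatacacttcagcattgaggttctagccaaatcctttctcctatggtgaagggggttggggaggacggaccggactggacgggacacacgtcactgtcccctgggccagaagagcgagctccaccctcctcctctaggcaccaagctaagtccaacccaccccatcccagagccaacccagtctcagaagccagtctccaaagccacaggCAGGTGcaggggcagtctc
Cldn4 (chr5:134946885-134947184, minus strand): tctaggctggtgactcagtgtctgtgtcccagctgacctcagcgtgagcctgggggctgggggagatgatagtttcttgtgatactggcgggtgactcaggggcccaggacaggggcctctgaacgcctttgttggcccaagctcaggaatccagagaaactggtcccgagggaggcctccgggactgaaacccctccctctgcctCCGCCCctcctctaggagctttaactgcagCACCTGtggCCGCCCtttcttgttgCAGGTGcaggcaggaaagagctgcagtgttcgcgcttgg
Cldn6 (chr17:23679115-23679414, plus strand): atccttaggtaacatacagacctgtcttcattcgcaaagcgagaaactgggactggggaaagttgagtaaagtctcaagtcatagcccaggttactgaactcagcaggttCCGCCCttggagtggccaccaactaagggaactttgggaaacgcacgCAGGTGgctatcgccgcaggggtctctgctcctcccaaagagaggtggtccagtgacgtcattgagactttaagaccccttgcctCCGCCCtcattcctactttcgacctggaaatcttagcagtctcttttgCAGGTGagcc
Cldn2 (chrX:139800558-139800857, plus strand): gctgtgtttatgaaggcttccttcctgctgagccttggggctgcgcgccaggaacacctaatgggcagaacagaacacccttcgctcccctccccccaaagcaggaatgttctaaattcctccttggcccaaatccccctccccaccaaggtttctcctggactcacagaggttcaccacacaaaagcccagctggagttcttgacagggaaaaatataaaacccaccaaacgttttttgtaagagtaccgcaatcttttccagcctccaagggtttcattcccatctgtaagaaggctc
Both strands were searched, and the motifs have no stretch in common. The Cldn3 window held 1 E-box, at 32 bases past the start, and the Cldn4 window held 2, at -14 and 12. The Cldn6 window held E-boxes at -93 and 41. The Cldn2 window held neither motif. Over the 12 member windows the E-box was found in 8, those of 6 genes, and it was found in 20.2% of all 32851 windows. The Ocln windows overlap and share an E-box, which is counted in both, and the 20.2% is a share of windows and not of genes. The GC box was found in 8 of the 12, those of 7 genes, against 35.7% of all windows. A match is a description of these letters and not a measured binding site.

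The sealing claudins Cldn3 and Cldn4 were higher in all 3 highly metastatic lines than in KC4. The mean difference of these lines from KC4 was nearly the same for both genes, while the lines differed among themselves. The brightest Cldn3 probe set gave signals of 6042, 6079 and 5886 in KC1, 8075, 9632 and 8843 in KC2 and 6488, 6416 and 6232 in KC3, against 2630, 2349 and 2336 in KC4. No highly metastatic array came near the KC4 arrays, and KC2 was the brightest line. The contrast of class, which is the 3 highly metastatic lines' mean minus KC4, was log2 1.52 (SE 0.054, 95% interval 1.39 to 1.64, adjusted p = 2.27e-07), a 2.86-fold difference. The other 3 Cldn3 probe sets gave 1.51, 1.46 and 1.63 in that contrast, and all 4 set KC4 apart. On the brightest probe set KC2 passed the test against both other lines of its class, with KC1 minus KC2 at -0.56 (adjusted p = 0.000452) and KC2 minus KC3 at 0.47 (adjusted p = 0.000586), while KC1 minus KC3 was -0.09 (interval -0.24 to 0.06, adjusted p = 0.434). On the probe set with a contrast of class of 1.46, KC2 minus KC3 was 0.31 (adjusted p = 0.123) and did not pass. These steps are under log2 1 and were not called. Of the 4 Cldn3 probe sets, 2 are of the x_at kind and 2 of the a_at kind, which can pick up related or several transcripts.

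Cldn4 lies next to Cldn3 on the chromosome. Its probe set gave 3886, 3842 and 3549 in KC1, 3906, 4266 and 4213 in KC2 and 3101, 3376 and 3154 in KC3, against 1234, 1280 and 1289 in KC4. The highly metastatic arrays lay together, well above the KC4 arrays. The contrast of class was log2 1.54 (SE 0.041, 95% interval 1.44 to 1.63, adjusted p = 4.23e-08), or 2.90-fold, and each line's own difference from KC4 was called, at 1.57 for KC1, 1.70 for KC2 and 1.34 for KC3. In the order of levels, KC2 and KC1 differed by less than the test could show (KC1 minus KC2 of -0.14, adjusted p = 0.112). KC3 came after both, with KC1 minus KC3 at 0.23 (adjusted p = 0.00984) and KC2 minus KC3 at 0.36 (adjusted p = 0.000551). With the line taken as a random block, at the correlation of 0.426 estimated over all probe sets, Cldn3 and Cldn4 stayed called, with adjusted p-values of 0.00131 and 6.95e-05. KC4 is still the only line of its class in that fit, so these calls do not part class from line.

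Cldn7, a claudin found along the sides of epithelial cells as well as at the junction, was higher in the highly metastatic lines with a difference just under the size asked for. Its signals were 9536, 8733 and 8679 in KC1, 8375, 10299 and 9790 in KC2 and 9579, 9042 and 9205 in KC3, against 4745, 4736 and 4587 in KC4. The 2 sets of arrays did not overlap. Its contrast of class was log2 0.98 (SE 0.059, 95% interval 0.84 to 1.11, adjusted p = 4.95e-06), so the test was passed and the minimum of 1 was missed. KC2 minus KC4, at 1.01 (adjusted p = 1.02e-05), was called, and KC1 minus KC4 at 0.94 and KC3 minus KC4 at 0.98 were not. Among KC1, KC2 and KC3 the largest difference was KC1 minus KC2 at -0.07 (adjusted p = 0.599), and their intervals ran from -0.24 to 0.19.

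Ocln followed the same order of classes with KC2 above the rest. Its brightest probe set gave 2326, 2328 and 2117 in KC1, 3388, 3876 and 3469 in KC2 and 2235, 2398 and 2164 in KC3, against 1674, 1421 and 1408 in KC4. KC1 and KC3 shared one range, KC2 lay above it and KC4 below. In the contrast of class the difference was log2 0.81 (SE 0.067, 95% interval 0.66 to 0.97, adjusted p = 3.18e-05) and the second probe set gave 0.79 (adjusted p = 0.000262), neither of them called. Both probe sets called KC2 over KC4, at 1.26 and 1.33. KC1 minus KC2 at -0.66 (adjusted p = 0.000564) and KC2 minus KC3 at 0.66 (adjusted p = 0.000274) passed the test without reaching a difference of 1.

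**Figure D1:**
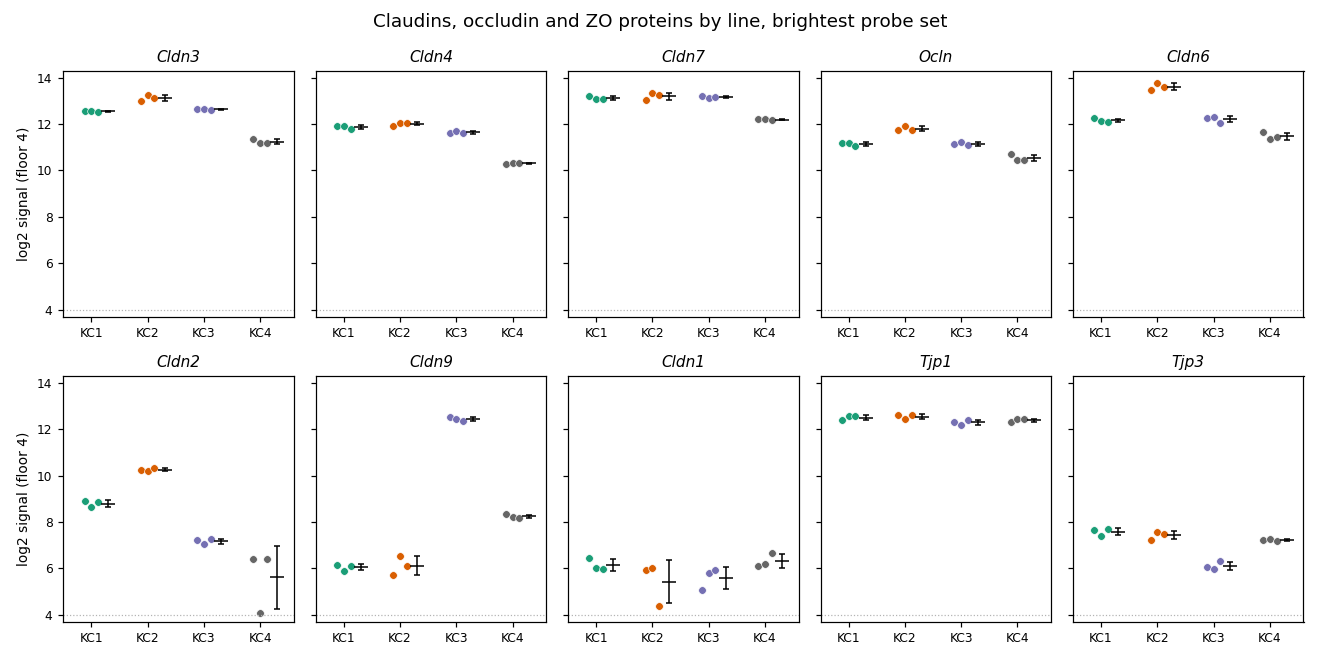
Log2 signal of the brightest probe set of each of the 10 genes in KC1, KC2, KC3 and KC4, a point per array, with the mean and SD of 3 arrays as a bar and the floor of 4.00 as a dotted line. Cldn3, Cldn4, Cldn7, Ocln, Cldn6 and Cldn2 have every highly metastatic array above every KC4 array, Cldn9 is high in KC3, and the Tjp1 arrays all lie between signals of 4706 and 6271.

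Cldn6, a claudin of embryonic epithelium that is little made in most adult tissues, was brightest in KC2. Its signals were 11203, 13964 and 12539 in KC2, 4867, 4495 and 4407 in KC1 and 4929, 5003 and 4241 in KC3, against 3211, 2631 and 2755 in KC4. The lines fell on 3 steps, with KC2 on top, KC1 and KC3 together in the middle and KC4 lowest. KC2 was set apart from each other line, at log2 1.66 above their mean. KC2 minus KC4 was 2.13 (SE 0.106, adjusted p = 1.09e-06), KC2 minus KC3 was 1.41 (adjusted p = 1.13e-05) and KC1 minus KC2 was -1.45 (adjusted p = 2.74e-05). KC1 minus KC4 at 0.68 (adjusted p = 0.00189) and KC3 minus KC4 at 0.72 (adjusted p = 0.000956) passed the test without reaching a difference of 1. KC1 and KC3 differed by -0.04 (interval -0.28 to 0.20). Cldn6 was also called in the contrast of class, at 1.18 (SE 0.086, adjusted p = 1.53e-05). Without KC2 it was 0.70 and not called, and with the line as a random block its adjusted p was 0.275.

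Cldn2, the channel-forming claudin of the set, had the largest contrast of class among the members, on 1 of its 2 probe sets. The brighter probe set gave 475, 400 and 464 in KC1, 1224, 1175 and 1299 in KC2 and 148, 133 and 154 in KC3, against 84.5, 16.7 and 84.8 in KC4. The lines ran in the order KC2, KC1, KC3, KC4 with no overlap of classes, and 1 KC4 array lay almost at the floor. Between the classes the difference was log2 3.12 (SE 0.436, 95% interval 2.13 to 4.12, adjusted p = 0.000751), with KC1 minus KC4 at 3.17 (adjusted p = 0.00305) and KC2 minus KC4 at 4.64 (adjusted p = 0.000186) both called. KC3 minus KC4, at 1.56 (interval 0.34 to 2.77, adjusted p = 0.0674), did not pass. KC2 minus KC3 was called at 3.09 (adjusted p = 0.00199), while KC1 minus KC2 at -1.47 (adjusted p = 0.101) and KC1 minus KC3 at 1.62 (adjusted p = 0.0573) did not pass. Without the dim KC4 array, replicate 2, the contrast of class was 2.35 (adjusted p = 1.00e-06). With the line as a random block its adjusted p was 0.212.

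The second Cldn2 probe set did not show this difference. It gave 210, 176 and 239 in KC1, 306, 293 and 333 in KC2 and 139, 139 and 182 in KC3, against 113, 279 and 194 in KC4. In this probe set KC4 spanned the range of KC1 and KC3, and replicate 2, the dim array of the first probe set, was the brightest KC4 array. The contrast of class was log2 0.23 (95% interval -0.31 to 0.76, adjusted p = 0.605). Its only call was KC2 minus KC3, at 1.03 (adjusted p = 0.0252), which the 2 probe sets share. Which part of the Cldn2 transcript each probe set covers is not stated. The mean of both probe sets gave a contrast of class of 1.68 (adjusted p = 6.45e-05). That mean joins a probe set with the difference to 1 without it. KC4 replicate 2 also lay at opposite ends of the KC4 arrays on the 2 probe sets. The small adjusted p of the mean thus does not settle which probe set holds.

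Cldn9, whose gene lies next to Cldn6, followed neither that gene nor the metastatic class. Its brightest probe set gave 5951, 5554 and 5212 in KC3, 71.8, 59.8 and 68.9 in KC1 and 52.0, 91.8 and 68.7 in KC2, against 321, 297 and 292 in KC4. KC3 stood alone at the top, KC4 was in the middle, and KC1 and KC2 shared the bottom. KC3 was set apart, at log2 5.64 above the mean of the other lines, and KC3 minus KC4 was 4.20 (SE 0.177, 95% interval 3.79 to 4.60, adjusted p = 5.49e-07), or 18.3-fold. KC1 minus KC4 at -2.19 (adjusted p = 4.30e-05) and KC2 minus KC4 at -2.14 (adjusted p = 2.46e-05) were called in the other direction, so the contrast of class averaged to -0.04 (interval -0.37 to 0.29, adjusted p = 0.921). KC1 minus KC3 was -6.38 and KC2 minus KC3 was -6.33. KC1 and KC2 differed by -0.05 (interval -0.45 to 0.35). The second probe set gave the same calls, with KC3 minus KC4 at 3.64 (adjusted p = 0.00132), KC1 minus KC4 at -2.08 (adjusted p = 0.0327) and KC2 minus KC4 at -2.01 (adjusted p = 0.0272).

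Cldn1, a sealing claudin best known from skin, was dim in every line. The brightest of its 4 probe sets gave 86.4, 64.2 and 63.4 in KC1, 61.1, 64.4 and 20.6 in KC2 and 33.2, 56.4 and 60.7 in KC3, against 69.3, 73.4 and 102 in KC4. The ranges of KC4 and KC1 overlapped, as did those of KC1 and KC2 and those of KC2 and KC3, and no comparison passed on this probe set. The contrast of class was log2 -0.60 (95% interval -1.41 to 0.21, adjusted p = 0.303), an interval that still holds a difference of more than 1. Of the other 3 probe sets, 1 was at the floor on 11 of the 12 arrays and another on 6 of the 12. The only Cldn1 call was on the remaining probe set, where KC1 minus KC2 was 1.02 (adjusted p = 0.000443) between signals of 33.2 to 42.1 in KC1 and 14.2 to 20.6 in KC2.

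Tjp1, which encodes the general scaffold ZO-1, had no call in any comparison. Its signals were 5422, 6036 and 6069 in KC1, 6271, 5546 and 6207 in KC2 and 5085, 4706 and 5366 in KC3, against 5031, 5500 and 5528 in KC4. KC1 and KC2 lay together, KC4 overlapped KC1 and KC3, and all 12 arrays lay between 4706 and 6271. The contrast of class was log2 0.07 (SE 0.060, 95% interval -0.07 to 0.20, adjusted p = 0.512). The largest difference between any 2 lines was 0.25, KC2 minus KC3 (adjusted p = 0.0300).

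Tjp3, which encodes the scaffold ZO-3 of epithelial cells, was lower in KC3. Its signals were 67.5, 62.5 and 79.4 in KC3, 199.7, 171 and 207 in KC1 and 151, 190 and 178 in KC2, against 149, 154 and 146 in KC4. All KC3 arrays lay below all others, and the other 3 lines lay close together. KC3 was set apart, at log2 -1.29 from the mean of the other lines, with KC3 minus KC4 at -1.11 (SE 0.114, adjusted p = 0.000121), KC1 minus KC3 at 1.46 (adjusted p = 2.19e-05) and KC2 minus KC3 at 1.31 (adjusted p = 2.92e-05). KC1 minus KC4 at 0.36 (adjusted p = 0.0642) and KC2 minus KC4 at 0.20 (adjusted p = 0.268) did not pass. Under quantile normalization, median centring or a pseudocount of 16, KC3 was still lowest but no longer reached 1 against every line.

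**Figure D2:**
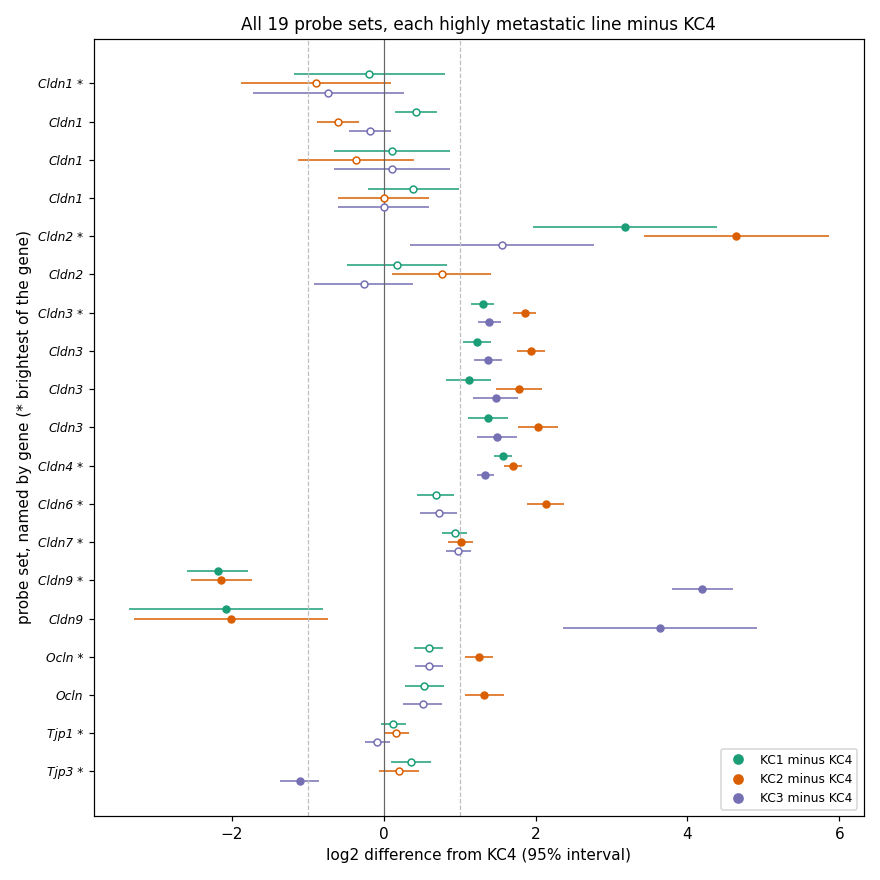
Log2 difference of KC1, KC2 and KC3 from KC4 for all 19 probe sets, with the 95% interval as a bar. Filled points were called, hollow points were not, dashed lines mark a difference of 1, and an asterisk marks the brightest probe set of a gene. The 4 Cldn3 probe sets and Cldn4 are filled for all 3 lines, and Cldn9 points to the right for KC3 and to the left for KC1 and KC2.

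Counted over probe sets, 7 of the 19 were called in the contrast of class, all of them higher in the highly metastatic lines, where 4.59% of all 45037 probe sets were called and 2.49% were called higher. They belong to 4 genes, namely Cldn3 with 4 probe sets and Cldn4, Cldn6 and Cldn2 with 1 each. On the brightest probe set of each gene the median contrast of class was 0.90 over the 10 members and -0.00088 over all 18193 genes, and 4 of the 10 members were called against 5.36% of all genes. Every highly metastatic array lay above every KC4 array for 10 of the 19 probe sets, those of Cldn2, Cldn3, Cldn4, Cldn6, Cldn7 and Ocln, and this held for 5.10% of all probe sets. No member probe set had all highly metastatic arrays below KC4, where 5.59% of all probe sets did. Because the members were chosen with earlier results of these data known, these shares describe the chosen genes and are not a test of them.

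The lines were also compared one by one, and the 3 comparisons with KC4 share its arrays. KC1 minus KC4 called 8 of the 19 (4.75% of all probe sets), 6 higher and the 2 of Cldn9 lower. KC2 minus KC4 called 12 (7.99% of all), 10 higher and again the 2 of Cldn9 lower. KC3 minus KC4 called 8 (6.70% of all), 7 higher and Tjp3 lower. Cldn3 and Cldn4 were higher in each of these comparisons, and Cldn2 was called higher on 1 probe set in those of KC1 and KC2. Ocln, Cldn6 and Cldn7 were called in that of KC2, and Cldn9 was higher in that of KC3.

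Among the highly metastatic lines, KC1 and KC2 had the fewest calls between them. KC1 minus KC2 called 2 of the 19 probe sets (4.04% of all), 1 of them a dim Cldn1 probe set and the other Cldn6. KC1 minus KC3 called 3 (7.00% of all), the 2 of Cldn9 and Tjp3. KC2 minus KC3 called 6 (9.42% of all), with both Cldn2 probe sets, Cldn6 and Tjp3 higher in KC2 and both Cldn9 probe sets lower.

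By the rule for a line that stands apart, KC4 was set apart by 5 of the 19 probe sets, all lower, and these are Cldn3 and Cldn4 (0.713% of all probe sets set KC4 apart as lower). KC3 was set apart by 3, the 2 of Cldn9 as higher (0.631% of all) and Tjp3 as lower (1.27% of all). KC2 was set apart by Cldn6 alone, as higher (0.677% of all), and KC1 by 0 (0.706% of all). When the minimum difference of 1 was dropped, KC4 was below each other line on 9 probe sets of 5 genes, with Cldn6, Cldn7 and both Ocln probe sets added (3.35% of all probe sets). By the same measure KC2 was above each other line on 6 probe sets of 3 genes, Cldn3, Cldn6 and Ocln (4.25% of all), and below on 1 of Cldn1 (4.77% of all). KC1 was above each other line on 1 Cldn1 probe set (1.85% of all). KC2 thus held the highest levels of Cldn3, Ocln, Cldn6 and Cldn2, KC3 was the line with high Cldn9 and low Tjp3, and KC4 had the lowest levels of Cldn3, Cldn4, Cldn6, Cldn7 and Ocln, with the Cldn2 order resting on 1 probe set and not passing the test between all neighbours. On 1 Cldn3 probe set KC2 did not pass the test over KC3.

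Other claudins were read on the brightest probe set of each of 14 genes measured of 19 listed. In the contrast of class 3 were higher and 0 lower, where 2.85% of all genes were called higher and 2.51% lower, and the median over the 14 was -0.02. Cldn18, of which a form is typical of alveolar epithelium, gave 2739, 2928 and 2930 in KC1, 3507, 3306 and 3515 in KC2 and 152, 117 and 156 in KC3, against 144, 169 and 155 in KC4. KC1 and KC2 lay far above KC3 and KC4, which overlapped. Its contrast of class was log2 2.84 (SE 0.086, adjusted p = 8.29e-08), but KC3 minus KC4 was -0.15 (interval -0.39 to 0.09, adjusted p = 0.390). A second Cldn18 probe set gave 3.67 in the contrast of class, and with the line as a random block the adjusted p of the first was 0.453.

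Cldn23 was the only claudin of that list that set KC4 apart. It gave 519, 522 and 501 in KC1, 580, 612 and 762 in KC2 and 304, 341 and 333 in KC3, against 165, 128 and 117 in KC4, a contrast of class of log2 1.82 (SE 0.11, adjusted p = 5.29e-06). Every highly metastatic array lay above every KC4 array. Cldn8, a sealing claudin of kidney and gut, was brightest in KC2, at 305, 209 and 232, against 71.2, 60.5 and 63.3 in KC1. It lay at or near the floor in KC3 and KC4, with 1 KC3 array and 2 KC4 arrays at it, and its contrast of class was 1.73 (adjusted p = 0.00106). That call was lost without KC2, with a floor of 64 (0.66) and with the line ignored or as a random block (adjusted p = 0.648 for the block). Cldn12, named after its values were seen, was present in all 4 lines with KC1 at log2 11.95, KC2 at 11.68, KC3 at 11.87 and KC4 at 11.47, a contrast of class of 0.36 (adjusted p = 0.000893) that was not called.

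Of 12 tricellular and immunoglobulin-like junction proteins measured, 2 were higher (against 2.85% of all genes) and 2 lower (against 2.51%) in the contrast of class, with a median of 0.08. Ildr2, of the angulin family that marks the corners where 3 cells meet, gave 76.6, 97.3 and 91.6 in KC1, 225, 200.3 and 215 in KC2 and 203, 173 and 164 in KC3, against 2686, 3284 and 3197 in KC4. KC4 alone was bright, at a contrast of class of log2 -4.34 (SE 0.10, adjusted p = 1.23e-08). Its relative Ildr1 went the other way, with 137, 115 and 110 in KC1, 144, 94.0 and 88.9 in KC2 and 65.1, 36.1 and 72.0 in KC3, against 3 arrays at the floor in KC4. That is a contrast of class of at least log2 2.48, and it was not called with a floor of 64. Marveld3, a relative of occludin, was higher by 1.07 (adjusted p = 1.93e-05), while its other 2 probe sets gave 0.29 and -0.68, and the call was lost when its probe sets were averaged (0.23) and when KC2 was left out. Jam2, a junctional adhesion molecule, was at -1.20 in the contrast of class, with KC3 set apart at log2 5.71, where KC1 was at 8.33, KC2 at 9.03 and KC4 at 8.89. Its other 4 probe sets gave -0.44, -1.30, -0.16 and -0.63. The Jam2 call was lost without KC3 (-0.21), when its probe sets were averaged, and with the line ignored or as a random block (adjusted p = 0.841 for the block).

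**Figure D3:**
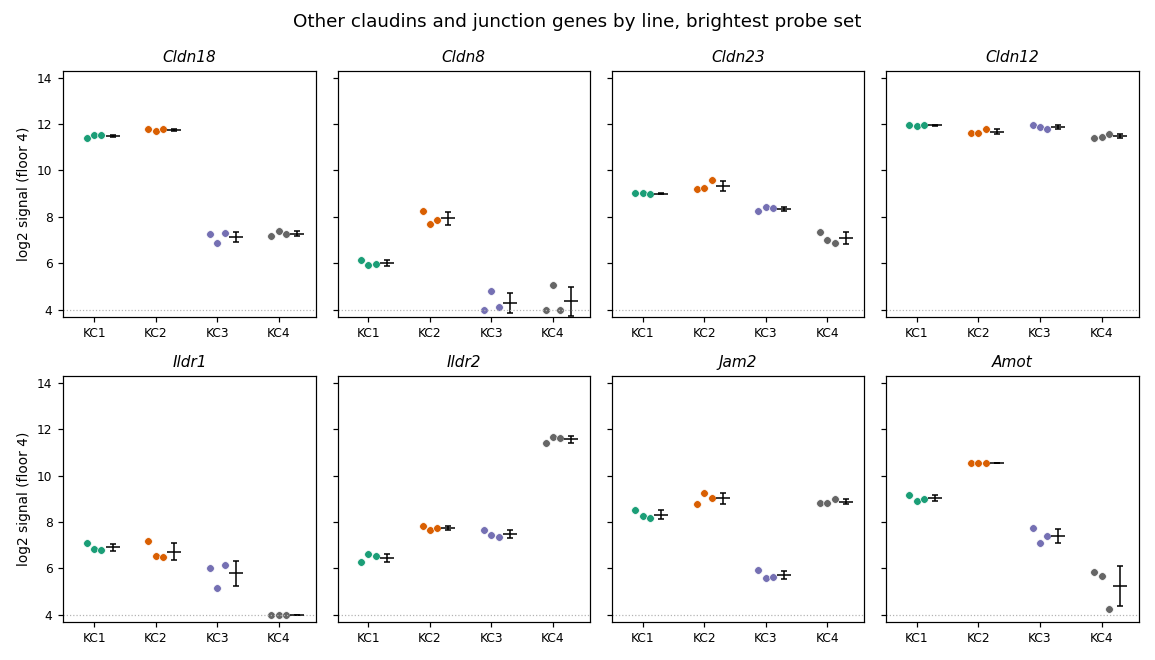
Log2 signal of the brightest probe set of 8 other junction genes in KC1, KC2, KC3 and KC4, a point per array, with the mean and SD of 3 arrays as a bar and the floor of 4.00 as a dotted line. Cldn18 is high in KC1 and KC2 alone, Ildr2 is high in KC4, and Ildr1 is at the floor on the 3 KC4 arrays.

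The plaque and polarity genes lie under the membrane. Of 12 plaque scaffolds measured of 16 listed, 1 was called higher in the contrast of class and 0 lower, with a median of 0.36, and of all genes 5.36% were called in either direction. That gene was Amot, an angiomotin, with KC1 at log2 9.03, KC2 at 10.55 and KC3 at 7.41, against 5.26 for KC4. Its contrast of class was 3.74 (SE 0.30, adjusted p = 2.55e-05), but its other 2 probe sets gave 0.78 and -0.13, and with the line as a random block the adjusted p was 0.0712. Of 16 polarity genes measured of 18 listed, 0 were called in the contrast of class, and the median was 0.01. Without a minimum difference 10 of these 16 passed limma's adjusted p of 0.05, on the brightest probe set of each gene. Over all 45037 probe sets, dim ones included, 10542 passed, so the counts are not on the same footing.

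Of 20 transcription factors known to act on claudin genes, 3 were higher (against 2.85% of all genes) and 4 lower (against 2.51%) in the contrast of class, with a median of -0.05. Cebpa, a factor of lung epithelial differentiation, had KC1 at log2 9.46, KC2 at 7.38 and KC3 at 8.06, against 4.98 for KC4, a difference of 3.32 (SE 0.35, adjusted p = 0.000141). Klf4, a barrier factor of skin and gut, had KC1 at 11.26, KC2 at 11.63 and KC3 at 11.13, against 12.84 for KC4, a difference of -1.50 (SE 0.13, adjusted p = 5.24e-05). Ovol1 was higher by 1.24 (adjusted p = 5.38e-05), a call lost when its probe sets were averaged (0.92) and when KC3 was left out. With the line as a random block the adjusted p was 0.0574 for Cebpa and 0.105 for Ovol1. Grhl3 was at -1.14 (adjusted p = 0.0466) near the floor, and this call was lost under most alternatives. The remaining 3 called were Elf3 at 1.00, Ehf at -1.05 and Zeb2 at -1.05, named here after their values were seen. Of 11 partners and proteases, 2 were higher (against 2.85% of all genes) and 0 lower (against 2.51%), with a median of 0.24: the membrane-anchored proteases Prss8 at 1.81 (SE 0.13, adjusted p = 1.08e-05), with KC4 set apart, and Tmprss4 at 1.26 (adjusted p = 0.0430), a call lost under most alternatives. Epcam, which binds claudins and was also named after its values were seen, was at 0.89 and not called.

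The genes on either side of the members were read the same way, up to 3 steps each side in the order of the RefSeq gene table, which gave 30 measured genes. Cldn3 and Cldn4 are next to each other there. Their neighbour Mettl27 was called in the contrast of class at 1.06, with KC1 at a log2 mean of 9.02, KC2 at 9.91 and KC3 at 8.33, against 8.03 for KC4. The neighbours Wbscr25 at 0.10 and 9030607J07Rik at -0.80 were not called. Cldn6 and Cldn9 are also next to each other, and the line order of each was its own: Cldn6 was highest in KC2 and Cldn9 in KC3. None of Thoc6, Hcfc1r1, Tnfrsf12a, Pkmyt1 and Paqr4 around them was called in the contrast of class. Morc4, beside Cldn2, was higher in the highly metastatic lines by 1.34 and set KC4 apart, while Marveld2, near Ocln, was at 0.17 and not called. Not all of the 30 measured genes are named here, those named were not picked by a set rule, and the number called among the 30 is not given. Of all genes 5.36% were called in the contrast of class, and 0.907% set KC4 apart as lower, shares that the named neighbours alone cannot be set against. Any link between neighbours and members was not tested.

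For the 3 members whose line means spread over at least log2 2, the genes of most similar pattern were found among 4530 genes by Pearson correlation over the 12 arrays, which fall into 4 lines, so each value is a description. For Cldn2 they were Gpsm3 (r = 0.971), Frmd5 (0.968) and Fbxo32 (0.962). For Cldn6 they were Utp14b (0.989), Slc7a4 (0.988) and Sub1 (0.987). For Cldn9 they were Tsr1 (0.990), Tsr2 (0.989) and Erdr1 (0.986).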

How the data were processed

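The deposited table holds 1 linear intensity per probe set and array, and the software, background correction and scaling behind these intensity values are not given in the sources used here. The labels' protocols state total RNA, biotin labelling and the array maker's protocol. From the values, all arrays have the same trimmed mean, so a change in total RNA per cell would not be seen. Of the probe sets, 64 controls were left out. Symbols were taken from the array platform's annotation (34945 probe sets with 1 symbol, 932 with several, 9160 with none listed). Log2 of the signal floored at 16 was fitted over all 12 arrays and 45037 probe sets, a coefficient for each line, by lmFit and eBayes of limma 3.58.1 (R 4.3.3), with Benjamini-Hochberg adjustment over all of them. No detection calls were used, and 3 arrays per line limit the precision. On simulated data, with 50 probe sets of above-median mean signal changed at each size, the contrast of class recovered 88% of those changed by log2 1.5, 94% at 2 and 100% at 3 and 4, with 0 false calls. Apart from these changes the simulated lines had equal means, so the count of false calls does not cover differences between lines. The recovered share depends on how bright the changed probe sets are: an earlier run of the same test, limited to somewhat brighter probe sets, recovered more, and dim probe sets are not covered. A gene was summarised by its probe set of highest mean. From each gene list up to 4 genes were named: those called in the contrast of class with the largest differences, then those setting a line apart. Cldn12, Epcam, Elf3, Ehf, Zeb2 and Snai2 were named besides, after their values were seen. A shared allele of the lines and 1 gene list are not reported here. The members, lists and markers were chosen with earlier results of these data known. Alternatives were the floor, a pseudocount, quantile or median scaling, a filter on dim probe sets, the merging of probe sets, the minimum difference, the replicate number or line as a block, and leaving out arrays or lines. Promoter windows are those of RefSeq, GRCm38.p6. No genome build is named for the array values.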

Additional observations from a re-analysis of the deposited data

How the results depend on the processing

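Of the 1522 alternative values computed, 1358 kept their direction and their side of the threshold, or lay within 1.5 times the count. With 1 probe set per gene the calls over the 10 members were 4 in the contrast of class, 4 for KC1 minus KC4, 7 for KC2 minus KC4, 4 for KC3 minus KC4 and 1 for KC1 minus KC2, with KC4 set apart by 2. Averaging the probe sets of a gene gave 4, 4, 7 and 4 in the first 4 of these, with KC2 and KC4 set apart by 2 each. KC2 was set apart by 2 probe sets among the brighter probe sets (above the median mean signal), with a floor of 64 or with a pseudocount of 16. With no minimum difference the calls were 13 for KC1 minus KC4, 8 for KC1 minus KC2, 5 for KC1 minus KC3 and 14 for KC2 minus KC3, with KC1 set apart by 1, KC2 by 7 and KC4 by 9. With a minimum of 2 they were 1 in the contrast of class, 3 for KC1 minus KC4, 5 for KC2 minus KC4, 2 for KC3 minus KC4, 0 for KC1 minus KC2 and 3 for KC2 minus KC3, with KC2 and KC4 set apart by 0. Leaving out 1 array at a time gave 1 to 3 calls for KC1 minus KC2 (1 without KC1 replicate 3 or KC2 replicate 3, 3 without KC4 replicate 2) and set KC2 apart by 1 to 2 (2 without KC4 replicate 2). Most of the moved counts follow from the construction of the alternative (fewer probe sets tested, another minimum), and for the others the cause was not tested.

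The Cldn9 contrast of class, an average of opposite directions, turned to 1.03 without KC1 and 1.00 without KC2, both called, to 0.0016 with a floor of 64, 0.091 with a pseudocount and, with 1 array left out at a time, ran from -0.11 (without KC2 replicate 2) to 0.025 (without KC2 replicate 1), and it was -2.16 without KC3. The Tjp3 contrast turned to 0.28 without KC3. Cldn7 was called at 1.00 when median centred and at 1.01 without KC2 replicate 1. The Cldn2 and Cldn6 contrasts of class were not called with the line as a random block or with the line ignored (adjusted p = 0.058 and 0.137), and the Cldn3 and Cldn4 contrasts were called in both. With the line ignored, the arrays of a line count as independent members of its class. KC4 is the only poorly metastatic line in both fits, so neither parts class from line.

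Replicate numbers did not pair the arrays: the 18 same-numbered pairs deviated with a mean correlation of -0.018 (range -0.39 to 0.36), and 11 of 36 best matches carried the same number. With the replicate number as a block, 7 member probe sets were called in the contrast of class, as without it, 7 for KC1 minus KC4 and 11 for KC2 minus KC4. Over all probe sets, 508 were called in the contrast of class with the line as a random block and 982 with the line ignored, against 2067. Among the 22518 brighter probe sets, 1257 were called in the contrast of class, 1256 for KC1 minus KC4 (2138 over all), 1048 for KC1 minus KC2 (1820 over all), 2013 for KC1 minus KC3 (3151 over all) and 123 set KC1 apart (318 over all). Median centring moved the median of all KC3 minus KC4 differences to 0.14, against -0.04, and the split of higher to lower calls to 1884 and 1328, against 1234 and 1785. It gave 1539 and 1781 for KC1 minus KC3 (against 2154 and 997), 1622 and 3003 for KC2 minus KC3 (against 2452 and 1790), and 562 and 383 for KC3 set apart (against 284 and 572, and 352 and 444 under quantile normalization).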
